A study of Macaca mulatta with 449 samples.

Results

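The corpus callosum (CC) is the bundle of myelinated fibers that joins the cerebral hemispheres, and it was compared here with the neocortex of the same brains. The members were the 8 libraries whose labels gave the corpus callosum as their source, 1 from each of 8 rhesus macaques, out of 449 samples in the series. The count table held 51 sub-regions, each with 1 library from every animal. The other side of the comparison was made from 248 libraries of 31 sub-regions of the cerebral cortex. These took in the parahippocampal gyrus but not the entorhinal and perirhinal cortex. Their counts were summed within each animal, so that each animal gave 1 CC library and 1 neocortex sum. The animals were 4 males (Rhesus 2, 3, 7 and 8) and 4 females (Rhesus 4, 6, 10 and 11). Rhesus 4, 7, 8 and 10 were young, with labelled ages of 3.2, 4, 3.8 and 5 years, and Rhesus 2, 3, 6 and 11 were mid-aged, at 10, 10, 10 and 9.8 years. No animal had a treatment or an altered genotype in the labels. By the study's methods 1 anatomist dissected every brain and took a piece of a few cubic millimeters per region, so that a CC library stands for a small block of tissue and not for the whole tract. The labels do not say whether any 2 animals were related. The CC libraries held 9517989 to 16679586 counts on genes (median 11216075), and the neocortex sums 297336760 to 428597814, from cortical libraries of 7784678 to 31083490 counts. A level is given in CPM, the count relative to the library total, scaled with the TMM method of edgeR, and the lowest, the highest and the median of the 8 animals are given for each tissue. Gene lengths were not used, so the levels of different genes are not compared with each other.

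White matter is made of axons whose cell bodies lie elsewhere, of the oligodendrocytes that wrap them in myelin, and of astrocytes, microglia and blood vessels. Myelin is a stack of membrane that is rich in cholesterol and galactolipids and is held together by a small set of proteins, and oligodendrocytes turn on the genes for these as they mature from precursors. The neocortex holds the neuronal cell bodies, whose mRNA is mostly retained there, and has less myelin.

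The CC libraries, labelled as corpus callosum, carried the markers of myelinating cells in large amounts. Myelin basic protein gene *MBP* (ENSMMUG00000011333), whose product packs the inner faces of the myelin membrane, had 46469 to 57979 CPM in CC (median 50965) and 1407 to 1904 CPM in the neocortex (median 1684). Myelin-associated oligodendrocyte basic protein gene *MOBP* had 892 to 1396 CPM in CC (median 1119) and 20.8 to 26.8 CPM in the neocortex (median 22.9). Ermin gene *ERMN*, for a cytoskeletal protein of mature oligodendrocytes, had 1106 to 1876 CPM in CC (median 1389) and 21.5 to 39.8 CPM in the neocortex (median 37.3). For each of the 3 genes the lowest CC library lay far above the highest neocortex sum, and the differences were close to each other in size (*MBP* log2FC 4.95 ± 0.11 SE, FDR 2.15e-12; *MOBP* log2FC 5.57 ± 0.10 SE, FDR 6.51e-13; *ERMN* log2FC 5.43 ± 0.13 SE, FDR 3.61e-12; n = 8 animals). Among single cortical libraries *MBP* ran from 220.0 to 4445 CPM on the common scale of all libraries, with the highest sub-region mean in the superior precentral gyrus (3265 CPM) and the lowest in the ventromedial prefrontal cortex (379 CPM). On that scale the CC libraries held 48097 to 59709.6 CPM, above all 248 cortical libraries. *MBP* alone took 4.66% to 5.61% of all counts on genes in the CC libraries (median 5.08%) and 0.138% to 0.193% in the neocortex sums.

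Across 18396 genes tested with edgeR's quasi-likelihood test and the animal as a block, 3474 genes (18.9%) were called higher in CC and 4716 (25.6%) lower, at an FDR below 0.05 and an absolute log2FC above 1, with Benjamini-Hochberg adjustment over all genes tested. Together these were 8190 genes (44.5%), and 14176 (77.1%) passed the FDR alone, whatever the size of the difference. When the size itself was tested (edgeR's glmTreat against a log2FC of 1), 2724 genes were called higher and 3867 lower. The median log2FC of all genes tested was -0.09. Calls were therefore common, and the counts for the gene lists below are to be read against these shares. The neocortex sums are far deeper than the CC libraries, so a low gene can enter the test through the neocortex alone. Against the posterior cingulate gyrus alone, with 1 library per animal, 14589 genes were tested. There 3054 were called higher in CC and 3247 lower, so the shares depend on the cortical side. All 8 CC libraries lay above all 8 neocortex sums for 3695 genes (20.1%) and below them for 5235 (28.5%). Against the single cortical libraries, CC lay above all 248 for 1888 genes (10.3%) and below all 248 for 2213 (12%). The mean of CC was the highest of the 51 sub-regions for 2696 genes (14.7%). In tissue as a whole, more cells of a type and more RNA per cell cannot be told apart, and this holds for every list below. The lists were drawn from cell type and pathway knowledge with earlier results of these data known, so a list's count describes its members and is no independent evidence of their direction.

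**Figure D1:**
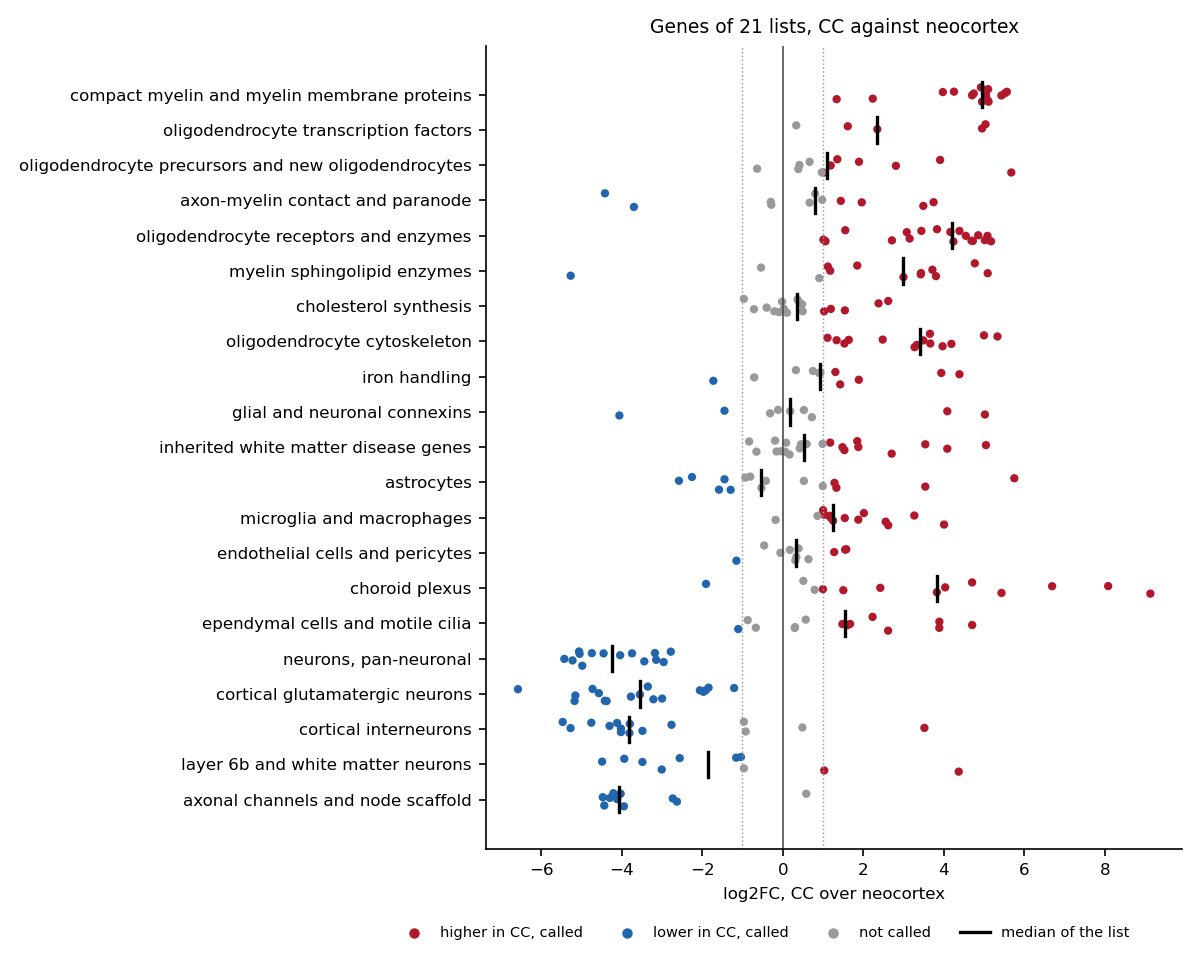
Difference between CC and neocortex (log2FC on the horizontal axis) for each tested gene of 21 lists, 1 point per gene, colored by whether the gene was called, with a black bar at each list's median and dotted lines at a log2FC of -1 and 1. The compact myelin genes all lie to the right (median 4.95) and the pan-neuronal genes all to the left (median -4.24), while the astrocyte genes lie on both sides.

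All 15 genes of the compact myelin list rose in CC, with a median log2FC of 4.95, and 13 of them had their highest mean of the 51 sub-regions there. Their summed level was 91097 to 121460 CPM in CC (median 102951) and 2686 to 3520.1 CPM in the neocortex (median 3345). Members with a log2FC near the list median included *MAG* for an adhesion protein facing the axon (log2FC 5.10, FDR 9.95e-13), *MOG* for an outer surface antigen (log2FC 5.11, FDR 1.25e-12) and *CNP* for an enzyme of the cytoplasmic channels (log2FC 4.75, FDR 2.5e-12). *CLDN11*, the tight junction claudin of myelin, had 318 to 526 CPM in CC (median 422) and 7.01 to 10.8 CPM in the neocortex (median 9.88). The lowest CC library was many times the highest neocortex sum, with a log2FC of 5.52 ± 0.10 SE, FDR 8.99e-13. *OPALIN* (5.08), *MAL* (4.92), *PLLP* (4.70), *CMTM5* (4.25) and the tetraspanin gene *CD9* (3.98) were all called with a log2FC between that of *CD9* and that of *OPALIN*. The genes with the smallest differences were *PMP2* and *TSPAN2*. *PMP2*, for a fatty acid binding protein best known from peripheral myelin, had 45.03 to 235 CPM in CC (median 169) and 20.2 to 47.4 CPM in the neocortex (median 34.7), and rose with a log2FC of 2.24 ± 0.16 SE, FDR 4.9e-08. The CC library of Rhesus 8, at 45.03 CPM, lay within the range of the neocortex, and the other 7 lay above it. *TSPAN2*, another tetraspanin gene, had 4.01 to 9.69 CPM in CC (median 7.89) and 2.45 to 3.55 CPM in the neocortex (median 2.80) (log2FC 1.34 ± 0.16 SE, FDR 6.42e-06), and every CC library was above every neocortex sum.

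**Figure D2:**
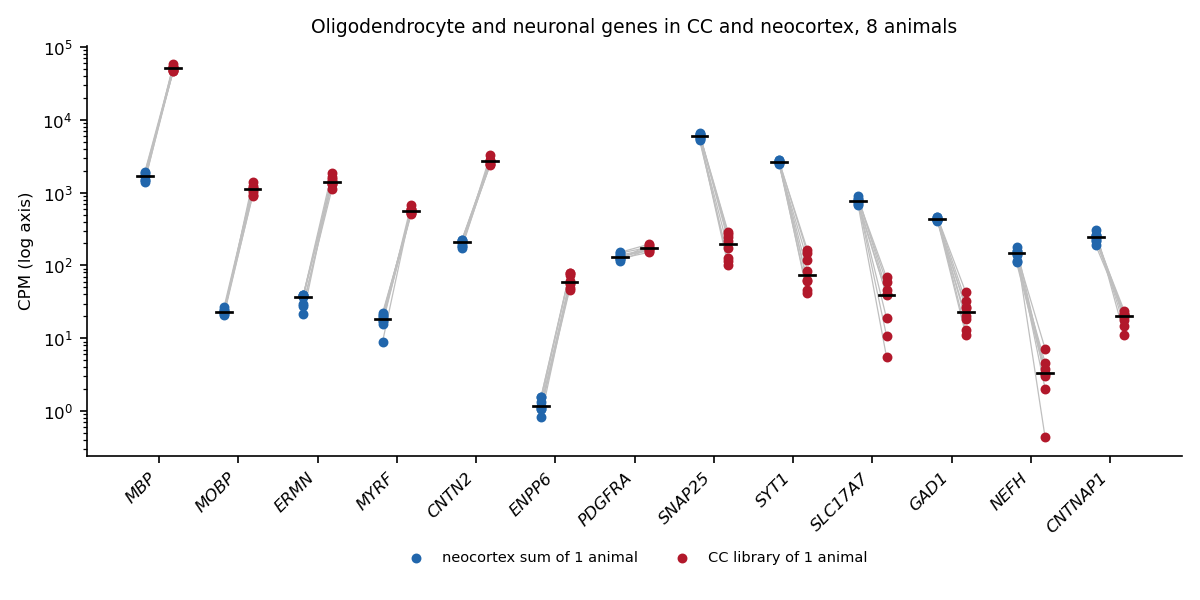
Levels of 13 oligodendrocyte and neuronal genes, 1 point per animal and tissue, on a logarithmic CPM axis, with lines joining the neocortex sum and the CC library of an animal and black bars at the medians of 8 animals. From *MBP* to *ENPP6* the tissues do not overlap and CC is higher, in *PDGFRA* the tissues meet at 151 CPM, and from *SNAP25* on CC is lower in every animal.

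Of the oligodendrocyte transcription factors on the list, 5 could be matched to a gene of the count table, and 4 of them rose. *MYRF*, the factor that mature oligodendrocytes need to express myelin genes, had 505 to 672 CPM in CC (median 561) and 8.94 to 22.2 CPM in the neocortex (median 18.2) (log2FC 5.04 ± 0.17 SE, FDR 3.19e-11). *ST18*, a zinc finger factor, had 339.9 to 616 CPM in CC (median 481) and 11.5 to 18.9 CPM in the neocortex (median 15.1) (log2FC 4.95 ± 0.13 SE, FDR 6.75e-12). Both were above every neocortex sum in every CC library. *OLIG2*, which marks the whole lineage from precursor to mature cell, rose by less. It had 160.3 to 301 CPM in CC (median 199) and 30.2 to 48.6 CPM in the neocortex (median 39.99) (log2FC 2.35 ± 0.09 SE, FDR 1.6e-10), without overlap. *NFE2L3* rose as well (log2FC 1.62 ± 0.09 SE, FDR 4.43e-09). *TCF7L2*, a Wnt effector of newly forming oligodendrocytes, had 6.83 to 14.2 CPM in CC (median 10.9) and 6.64 to 9.37 CPM in the neocortex (median 8.74), overlapped between the tissues and was not called (log2FC 0.34 ± 0.14 SE, FDR 0.0465).

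The genes of precursors and of new oligodendrocytes split. Of 12 tested, 7 rose, none fell and 5 were not called, with a median log2FC of 1.10. The precursor receptor gene *PDGFRA* had 151 to 195 CPM in CC (median 172) and 116 to 151 CPM in the neocortex (median 129.8), higher in CC in 8 of 8 animals but with a log2FC of 0.39 ± 0.07 SE, FDR 0.000158, below the size needed for a call. *CSPG4*, the NG2 proteoglycan of precursors, was at 15.4 to 32.9 CPM in CC (median 25.03) and 12.04 to 19.7 CPM in the neocortex (median 15.7) (log2FC 0.67 ± 0.11 SE, FDR 0.000115). Precursor genes *PCDH15* (log2FC 0.42), *MEGF11* (0.97) and *MYT1* (-0.63) were not called either, and *LHFPL3* passed narrowly (log2FC 1.02 ± 0.10 SE, FDR 1.27e-06). The call for *LHFPL3* was lost without Rhesus 3, 4 or 6 (log2FC 0.97, 0.98 and 1.00), without the 4 animals highest in cortical neuron transcripts (0.88), without a filter (0.94), under the study's detection rule (0.95) and under glmTreat (FDR 0.464). *MEGF11* gained one without Rhesus 7 (1.05). *MYT1* was lower in CC in 8 of 8 animals. By contrast *ENPP6*, an enzyme gene switched on in newly formed oligodendrocytes, had 46.3 to 78.03 CPM in CC (median 59.2) and 0.828 to 1.57 CPM in the neocortex (median 1.17). That was a log2FC of 5.68 ± 0.10 SE, FDR 6.51e-13, the largest log2FC on the list. *BCAS1*, another gene of early myelinating cells, had 942 to 1463 CPM in CC (median 1192) and 62.01 to 99.04 CPM in the neocortex (median 78.04) (log2FC 3.91 ± 0.09 SE, FDR 2.15e-12). *GPR17*, a receptor gene of committed precursors, had 21.2 to 45.2 CPM in CC (median 28.9) and 4.94 to 11.1 CPM in the neocortex (median 8.21) (log2FC 1.90 ± 0.13 SE, FDR 1.81e-08). All CC libraries lay above all neocortex sums for *ENPP6*, *BCAS1* and *GPR17*. The proteoglycan gene *VCAN* (2.81), *TNS3* (1.36) and *ITPR2* (1.19) made up the rest of the genes that rose.

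Where the myelin sheath meets the axon, some genes rose and others fell. *CNTN2*, a cell adhesion gene expressed by oligodendrocytes at the region next to the paranode, had 2429 to 3282 CPM in CC (median 2728) and 173 to 222 CPM in the neocortex (median 207) (log2FC 3.75 ± 0.09 SE, FDR 3.94e-12). *JAM3*, for an adhesion molecule of oligodendrocytes, had 202 to 279 CPM in CC (median 249) and 15.1 to 25.4 CPM in the neocortex (median 22.2) (log2FC 3.49 ± 0.10 SE, FDR 9.57e-12), and *CADM4*, which glia use to hold the axon, rose too (log2FC 1.44 ± 0.07 SE, FDR 5.01e-10). *NFASC*, which has a glial form at the paranode and a neuronal form at the node that the gene counts do not separate, rose with a log2FC of 1.96 ± 0.19 SE, FDR 6.25e-07. The groups did not overlap for any of these 4 genes. *CNTNAP1*, the axonal partner of the glial paranode proteins, had 11.02 to 23.7 CPM in CC (median 20.4) and 188 to 302 CPM in the neocortex (median 246) and fell by 3.69 on the log2 scale (FDR 4.96e-10). *CNTNAP2*, of the axonal side next to the paranode, had 1.94 to 8.16 CPM in CC (median 3.12) and 43.6 to 112 CPM in the neocortex (median 85.5) and fell by 4.41 (FDR 5.26e-08). For both, every CC library was below all 248 cortical libraries. *CNTN1*, another axonal paranode gene, overlapped between the tissues at 316 to 460.5 CPM in CC (median 382) and 339 to 581 CPM in the neocortex (median 469.5) and was not called (log2FC -0.28 ± 0.11 SE, FDR 0.0276).

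All 18 matched receptor, enzyme and transporter genes of oligodendrocytes rose in CC (median log2FC 4.20), and for all 18 the lowest CC library was above the highest of 248 cortical libraries. *KLK6*, a secreted protease gene, had 276 to 401 CPM in CC (median 348) and 7.11 to 12.7 CPM in the neocortex (median 9.38) and the largest log2FC of the list (log2FC 5.17 ± 0.08 SE, FDR 3.32e-13). *GPR62* and *GPR37*, orphan receptor genes of myelinating cells, rose with a log2FC of 5.09 and 4.55, and the sphingosine phosphate receptor gene *S1PR5* with 4.72. *ENPP2*, for autotaxin, which makes lysophosphatidic acid, had 1691 to 2223 CPM in CC (median 1869) and 56.6 to 90.3 CPM in the neocortex (median 69.6) (log2FC 4.69 ± 0.10 SE, FDR 1.62e-12). *LPAR1*, for a receptor of that lipid, had 518 to 941 CPM in CC (median 601) and 31.2 to 41.8 CPM in the neocortex (median 36.1) (log2FC 4.16 ± 0.11 SE, FDR 6.05e-12). Ligand-making enzyme and receptor were thus both higher in every animal. *CARNS1* for carnosine synthase (5.02), *FOLH1* for a peptidase of the dipeptide NAAG (4.24) and *CA2* for a carbonic anhydrase (3.15) rose as well. Smaller differences were found for the neuregulin receptor gene *ERBB3* (log2FC 1.55 ± 0.07 SE, FDR 6.62e-10), the lactate transporter gene *SLC16A1* (log2FC 1.06 ± 0.09 SE, FDR 2.11e-07) and the adenosine receptor gene *ADORA1* (log2FC 1.01 ± 0.06 SE, FDR 7.31e-09), which neurons also express. The call for *ADORA1* was lost without Rhesus 10 (log2FC 0.98), and that for *SLC16A1* without the 4 animals highest in choroid plexus transcripts (0.99) or in cortical neuron transcripts (0.88) in CC. Both calls were also lost under glmTreat (FDR 0.45 for *ADORA1* and 0.234 for *SLC16A1*), without a filter on low counts (log2FC 0.93 and 0.98) and under the study's detection rule (0.94 and 0.99).

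Of 13 sphingolipid genes tested, 10 rose, 1 fell and 2 were not called. *UGT8*, whose enzyme makes galactosylceramide, the main glycolipid of myelin, had 892 to 1545 CPM in CC (median 1226) and 37.03 to 48.6 CPM in the neocortex (median 45.1) (log2FC 4.77 ± 0.11 SE, FDR 3.11e-12). *FA2H*, which hydroxylates its fatty acids, had 286 to 424 CPM in CC (median 335) and 7.65 to 10.95 CPM in the neocortex (median 10.3) (log2FC 5.09 ± 0.07 SE, FDR 3.32e-13). *CERS2* (3.43) and *ELOVL1* (3.81), which build very long acyl chains, and the lipid transporter gene *ABCA2* (3.00) rose in the same way, as did the lysosomal enzyme genes *GALC* (1.85) and *ARSA* (1.18), which break these lipids down. The subunits of serine palmitoyltransferase, the first enzyme of the pathway, moved apart. Its catalytic subunit gene *SPTLC2* had 111 to 181 CPM in CC (median 147) and 9.60 to 17.3 CPM in the neocortex (median 14.7) (log2FC 3.44 ± 0.12 SE, FDR 4.97e-11), while *SPTSSB*, for a small subunit, had 0.242 to 1.86 CPM in CC (median 0.885) and 28.1 to 42.3 CPM in the neocortex (median 37.01) and fell by 5.27 (FDR 1.03e-10). The mean of CC for *SPTSSB* was the lowest of the 51 sub-regions and that for *SPTLC2* the highest. *ELOVL7*, another elongase gene, was not called (log2FC -0.54 ± 0.18 SE, FDR 0.016), nor was the desaturase gene *DEGS1* (log2FC 0.91 ± 0.06 SE, FDR 3.37e-08).

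Cholesterol is the most abundant lipid of myelin. Of 17 genes of its synthesis and control, 5 rose and none fell, beside 18.9% and 25.6% of all genes tested, and the list median was 0.37. Among those that rose, *INSIG1*, which restrains the pathway, had 174 to 351 CPM in CC (median 216) and 35.2 to 60.5 CPM in the neocortex (median 43.4) (log2FC 2.38 ± 0.11 SE, FDR 4.25e-10). *TM7SF2* (1.54), *MVK* (1.20) and *NSDHL* (1.03) rose as well, and *NSDHL* lost its call without Rhesus 7 (log2FC 0.99) and under glmTreat (FDR 0.365). *SREBF2*, the transcription factor that drives the pathway, had 188 to 235 CPM in CC (median 219) and 331 to 378 CPM in the neocortex (median 358) (log2FC -0.71 ± 0.06 SE, FDR 3.89e-07), lower in 8 of 8 animals and not called. *HMGCS1* (log2FC -0.40) and *SQLE* (log2FC 0.03) were not called.

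All 14 matched cytoskeleton genes of oligodendrocytes rose (median log2FC 3.41). *ANLN*, for anillin, which organizes septins in myelin, had 1395 to 2453 CPM in CC (median 1746) and 40.4 to 49.3 CPM in the neocortex (median 45.4) (log2FC 5.33 ± 0.11 SE, FDR 1.46e-12). The septin gene *SEPTIN4* had 1068 to 1556 CPM in CC (median 1287) and 89.9 to 117 CPM in the neocortex (median 101) (log2FC 3.66 ± 0.10 SE, FDR 1.02e-11). *TPPP3* (5.00) and the small heat shock protein gene *CRYAB* (3.67) rose in every animal. *TUBB4A*, the tubulin gene mutated in a hypomyelinating leukodystrophy, had 1559 to 2565 CPM in CC (median 2193) and 599 to 899 CPM in the neocortex (median 709.6) (log2FC 1.53 ± 0.09 SE, FDR 5.14e-09), and *SEPTIN7* the smallest difference (log2FC 1.11 ± 0.12 SE, FDR 2.6e-06). The call for *SEPTIN7* was lost under glmTreat (FDR 0.166). *KIF13B* was called at a very low level, with 0.251 to 1.58 CPM in CC (median 0.709) and 0.0149 to 0.0872 CPM in the neocortex (median 0.0467). Among genes of iron handling, 5 of 11 rose and 1 fell. Transferrin gene *TF*, which oligodendrocytes express, had 2171 to 3173 CPM in CC (median 2853) and 104 to 185 CPM in the neocortex (median 127) (log2FC 4.39 ± 0.09 SE, FDR 1.62e-12), and the ferritin genes *FTH1* and *FTL* rose with a log2FC of 1.31 and 1.43. The scavenger receptor gene *SCARA5* had 0.265 to 4.97 CPM in CC (median 1.89) and 0.314 to 0.802 CPM in the neocortex (median 0.582) (log2FC 1.89 ± 0.32 SE, FDR 0.000135), with overlap. The gene that fell was *TIMD4*, at 0 to 0.364 CPM in CC (median 0.199) and 0.337 to 1.06 CPM in the neocortex (median 0.607) (log2FC -1.72 ± 0.34 SE, FDR 0.000433). A count of 3 in a CC library comes to 0.257 CPM on average, above the CC median of *TIMD4*, so the size of its log2FC is uncertain. The transferrin receptor gene *TFRC* was lower in 7 of 8 animals and not called (log2FC -0.71 ± 0.11 SE, FDR 9.26e-05). Ceruloplasmin gene *CP* had 9.83 to 53.8 CPM in CC (median 20.9) and 1.14 to 1.78 CPM in the neocortex (median 1.34) (log2FC 3.94 ± 0.22 SE, FDR 3.53e-09), and its highest CC value was that of Rhesus 10, the library with the most choroid plexus transcripts (below). The part of those cells in it was not tested.

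Connexins join glia into networks, and each cell type uses its own set. The oligodendrocyte connexin gene *GJB1* rose, with 163 to 251 CPM in CC (median 198) and 4.52 to 8.27 CPM in the neocortex (median 6.10) (log2FC 5.02 ± 0.09 SE, FDR 8.79e-13). Of the astrocyte connexin genes, *GJA1* was not called (361 to 746 CPM in CC, median 604, and 374 to 441 CPM in the neocortex, median 380.2; log2FC 0.53 ± 0.13 SE, FDR 0.00216), and *GJB6* fell, with 20.96 to 31.9 CPM in CC (median 26.1) and 57.6 to 87.7 CPM in the neocortex (median 70.2) (log2FC -1.45, FDR 1.39e-08). The neuronal connexin gene *GJD2* fell too (log2FC -4.06 ± 0.31 SE, FDR 7.08e-08), with no counts in its lowest CC library. In CC *GJB1* was thus higher in every animal and *GJB6* lower in every animal. Genes whose mutation causes inherited white matter disease are not all genes of oligodendrocytes, and of 22 tested 9 rose and none fell. Those that rose included *TUBB4A*, *GALC*, *ARSA* and *GFAP*, the hyccin gene *HYCC1* (log2FC 2.71 ± 0.11 SE, FDR 2.78e-10), the chloride channel gene *CLCN2* (log2FC 1.49 ± 0.10 SE, FDR 1.96e-08) and the microglial receptor gene *CSF1R* (log2FC 1.88 ± 0.14 SE, FDR 4.92e-08). The translation factor gene *EIF2B5* was at 76.7 to 98.3 CPM in CC (median 87.3) and 77.2 to 98.6 CPM in the neocortex (median 89.6) (log2FC -0.04 ± 0.07 SE, FDR 0.647).

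Astrocyte genes did not move as one group. Of 15 tested, 4 rose, 5 fell and 6 were not called (median log2FC -0.53). *GFAP*, the intermediate filament of astrocytes, had 2735 to 4995 CPM in CC (median 4069) and 237 to 423 CPM in the neocortex (median 355) (log2FC 3.54 ± 0.10 SE, FDR 1.14e-11). *CD44*, a hyaluronan receptor found on fibrous astrocytes of white matter, had 32.1 to 57.2 CPM in CC (median 45.6) and 0.336 to 1.45 CPM in the neocortex (median 0.737) (log2FC 5.75 ± 0.17 SE, FDR 1.67e-11). Both were above all 248 cortical libraries in every CC library. Vimentin gene *VIM* (log2FC 1.33 ± 0.08 SE, FDR 4.98e-09) and the water channel gene *AQP4* (log2FC 1.29 ± 0.17 SE, FDR 1.43e-05) also rose. *AQP4* had 379.7 to 1339 CPM in CC (median 1072) and 334 to 452 CPM in the neocortex (median 379), and the CC library of Rhesus 8, its lowest, lay within the range of the neocortex while the other 7 lay above it. The glutamate uptake genes went the other way. *SLC1A3* had 349.9 to 689.5 CPM in CC (median 574) and 1434 to 1786 CPM in the neocortex (median 1691), a log2FC of -1.58 ± 0.10 SE, FDR 1.76e-08. *SLC1A2* had 22.3 to 103 CPM in CC (median 56.5) and 120.3 to 418 CPM in the neocortex (median 266), a log2FC of -2.25 ± 0.30 SE, FDR 1.56e-05. *WIF1*, a secreted Wnt inhibitor gene, had 7.21 to 41.7 CPM in CC (median 25.8) and 74.3 to 193 CPM in the neocortex (median 127) (log2FC -2.58 ± 0.25 SE, FDR 6.81e-07), *ETNPPL*, a phospholyase gene of astrocytes, fell by 1.29 (FDR 3.28e-07), and *GJB6* is given above. In these 5 genes CC was lower in 8 of 8 animals. *GLUL*, for glutamine synthetase, which oligodendrocytes also express, had 818 to 1210.3 CPM in CC (median 996) and 366 to 614 CPM in the neocortex (median 521) and a log2FC of 1.00, just short of the size for a call, which it reached without Rhesus 6, 7 or 11 (1.06, 1.00 and 1.05), under DESeq2 or its size factors (1.02 each) and with cortical libraries weighted equally (1.00). The glycolytic gene *ALDOC* was lower in 8 of 8 animals without a call (log2FC -0.81 ± 0.07 SE, FDR 2.44e-07).

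**Figure D3:**
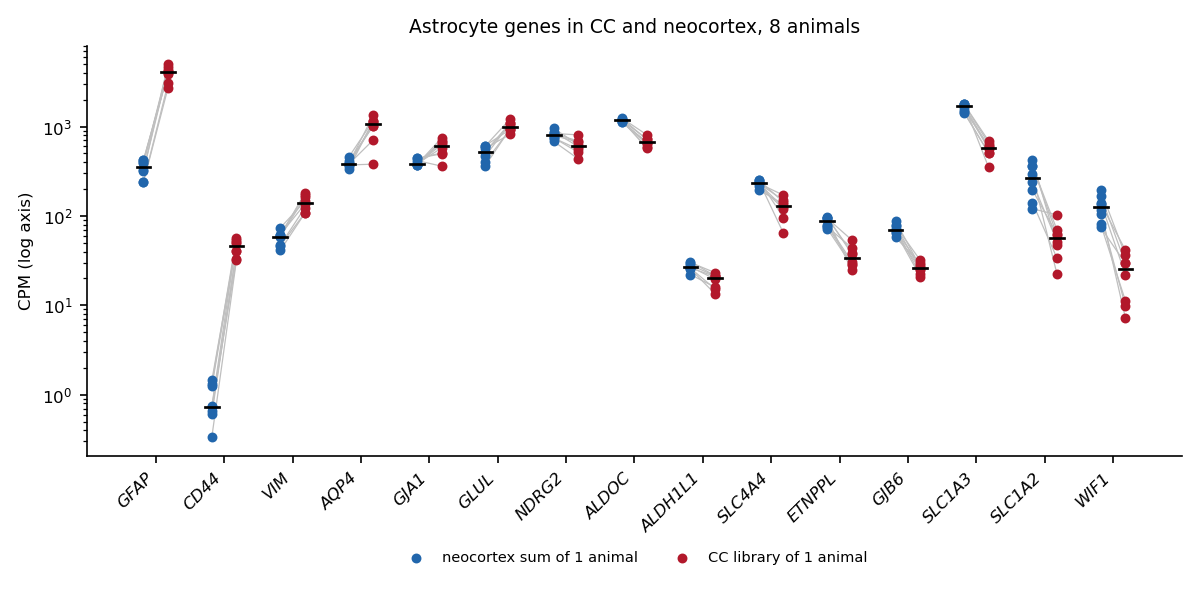
Levels of 15 astrocyte genes by animal in neocortex sums and CC libraries, on a logarithmic CPM axis, with lines joining the tissues of an animal and black bars at the medians of 8 animals. The first 6 genes, led by *GFAP*, have the higher median in CC and the other 9 the lower one.

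Of 15 genes of microglia and macrophages, 13 rose in CC and none fell, with a median log2FC of 1.25. Their summed level was 1823 to 3151 CPM in CC (median 2445) and 338 to 449.0 CPM in the neocortex (median 377). *CD74*, which chaperones major histocompatibility class II proteins, had 257 to 613 CPM in CC (median 341) and 9.48 to 42.3 CPM in the neocortex (median 21.7) (log2FC 4.01 ± 0.19 SE, FDR 9.43e-10). *SPP1*, the osteopontin gene, had 1206 to 2209.7 CPM in CC (median 1657) and 138 to 194 CPM in the neocortex (median 166) (log2FC 3.27 ± 0.08 SE, FDR 3.49e-12). *SPP1* is also expressed by neurons and oligodendrocytes in places, and it made up most of the list's sum in CC. Without it the other 14 genes summed to 616 to 1446 CPM in CC (median 869) and 190 to 261 CPM in the neocortex (median 201), again without overlap. *TREM2*, a lipid sensing receptor gene, had 10.4 to 30.7 CPM in CC (median 15.4) and 1.61 to 3.29 CPM in the neocortex (median 2.60) (log2FC 2.62 ± 0.12 SE, FDR 7.34e-10). Its signalling partner gene *TYROBP* had 12.7 to 29.3 CPM in CC (median 14.8) and 2.12 to 3.12 CPM in the neocortex (median 2.88) (log2FC 2.56 ± 0.14 SE, FDR 2.36e-09). The lysosomal gene *CD68* had 9.69 to 22.02 CPM in CC (median 10.6) and 2.40 to 3.56 CPM in the neocortex (median 2.85) (log2FC 2.02 ± 0.14 SE, FDR 3.9e-08). The CC library of Rhesus 6 was the highest for all of *TREM2*, *TYROBP* and *CD68*, and none of the 3 overlapped with the neocortex. *P2RY12* and *CX3CR1*, receptor genes known from resting microglia, rose with a log2FC of 1.25 ± 0.18 SE, FDR 3.76e-05 and a log2FC of 1.54 ± 0.15 SE, FDR 9.46e-07, and the groups overlapped for *P2RY12*, whose call was lost under glmTreat (FDR 0.0783). *GPNMB* (log2FC -0.18 ± 0.17 SE, FDR 0.341) and the scavenger receptor gene *CD163* (log2FC 0.86 ± 0.16 SE, FDR 0.000234) were not called, though *CD163* was without the 4 animals highest in choroid plexus transcripts (log2FC 1.03, FDR 0.00284). Of 11 endothelial and pericyte genes, 3 rose, among them *VWF* (log2FC 1.55 ± 0.14 SE, FDR 4.69e-07) and *TIE1* (log2FC 1.28 ± 0.11 SE, FDR 1.75e-07). The smooth muscle genes moved apart, *MYH11* with a log2FC of 1.58 ± 0.14 SE, FDR 2.43e-07 and *ACTA2* with a log2FC of -1.15 ± 0.15 SE, FDR 1.68e-05, the latter not called under glmTreat (FDR 0.158). *FLT1* did not differ detectably (log2FC -0.06 ± 0.12 SE, FDR 0.675).

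Most neuronal genes fell. All 14 pan-neuronal genes, all 17 genes of cortical glutamatergic neurons and 9 of 10 genes of axonal channels and the node were lower in CC, with list medians of -4.24, -3.55 and -4.07. *SNAP25*, of the vesicle fusion machinery, had 100 to 288 CPM in CC (median 195) and 5226 to 6504 CPM in the neocortex (median 6044) (log2FC -5.06 ± 0.18 SE, FDR 6.48e-11). The calcium sensor gene *SYT1* had 41.5 to 165 CPM in CC (median 72.9) and 2485 to 2796 CPM in the neocortex (median 2645) (log2FC -5.04 ± 0.25 SE, FDR 1.08e-09). *RBFOX3*, the NeuN antigen, fell by 5.22 (FDR 1.6e-10). The gene for the heavy neurofilament subunit, *NEFH*, which gives large axons their caliber as a protein, had 0.441 to 7.22 CPM in CC (median 3.32) and 109.8 to 180.2 CPM in the neocortex (median 146) (log2FC -5.42 ± 0.29 SE, FDR 2.4e-09). The light subunit gene *NEFL* had 15.7 to 63.8 CPM in CC (median 35.9) and 1046 to 1119 CPM in the neocortex (median 1070.4) (log2FC -4.98 ± 0.23 SE, FDR 5.4e-10). The smallest difference among pan-neuronal genes named here was that of *GAP43*, of growing axons (log2FC -2.96 ± 0.14 SE, FDR 8.59e-10), and that of *MAP2*, of dendrites, was -3.14. Of the genes for axonal proteins, *SCN1A* (-4.29), *SCN2A* (-4.47), *SCN8A* (-4.43), the potassium channel gene *KCNA2* (-4.21) and the spectrin gene *SPTBN4* (-4.02) fell. *ANK3*, whose ankyrin anchors channels at the node and initial segment, was the exception at 383 to 695 CPM in CC (median 532) and 239 to 462 CPM in the neocortex (median 390.5), higher in 7 of 8 animals and not called (log2FC 0.59 ± 0.15 SE, FDR 0.00311). Against the posterior cingulate gyrus alone *ANK3* was called higher (log2FC 1.26, FDR 0.00619). The genes named by the rule on the difference in CPM, which grows with the length of a transcript, were *SNAP25*, *SYT1*, the axonal motor gene *KIF5A* (211 to 499.7 CPM in CC, median 311, and 2393 to 3054 CPM in the neocortex, median 2707; log2FC -3.12 ± 0.15 SE, FDR 7.12e-10), *CHN1* (log2FC -4.02 ± 0.18 SE, FDR 4.15e-10) and the calmodulin gene *CALM3* (log2FC -2.70 ± 0.10 SE, FDR 8.81e-11).

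Transcripts of cortical neurons were low but present in every CC library, and their amount varied between animals. The summed glutamatergic list was 167 to 614 CPM in CC (median 373) and 5386 to 6669 CPM in the neocortex (median 5561). Rhesus 8 held the most and Rhesus 10 the least. *SLC17A7*, the vesicular glutamate transporter of cortical projection neurons, had 5.51 to 68.4 CPM in CC (median 39.7) and 684 to 899 CPM in the neocortex (median 757) (log2FC -4.72 ± 0.37 SE, FDR 8.21e-08), a 12.4-fold range among CC libraries against 1.31-fold among neocortex sums. *NEUROD6* had 0.909 to 17.4 CPM in CC (median 7.31) and 48.1 to 72.2 CPM in the neocortex (median 60.6) (log2FC -3.21 ± 0.40 SE, FDR 8.25e-06) and *CAMK2A* 28.9 to 274 CPM in CC (median 114.6) and 1923 to 2547 CPM in the neocortex (median 2175) (log2FC -4.57 ± 0.36 SE, FDR 8.89e-08), each with a wide range in CC as well. *SLC17A6*, the transporter gene of thalamic neurons, fell by 6.58 (FDR 6.94e-11). Whether tissue next to the tract contributed these transcripts was not tested.

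Of 15 interneuron genes 11 fell, 1 rose and 3 were not called. *GAD1*, the main GABA synthesis gene, had 11.2 to 42.7 CPM in CC (median 22.9) and 412 to 467 CPM in the neocortex (median 433) (log2FC -4.30 ± 0.20 SE, FDR 5.35e-10), *GAD2* a log2FC of -4.11, the parvalbumin gene *PVALB* -5.46 and the somatostatin gene *SST* -3.48. *NPY* was lower in 8 of 8 animals without a call (log2FC -0.96 ± 0.28 SE, FDR 0.00661), and *ADARB2* was not called (log2FC 0.49 ± 0.38 SE, FDR 0.252). Without any 1 of Rhesus 3, 6, 7 and 8 *NPY* was called lower (log2FC -1.02, -1.05, -1.10 and -1.06). The gene that rose was *RELN*, for the secreted protein reelin, best known for guiding migrating neurons. It had 1132 to 1507 CPM in CC (median 1299) and 72.7 to 149 CPM in the neocortex (median 118) (log2FC 3.52 ± 0.11 SE, FDR 2.7e-11), and all 8 CC libraries lay above all 248 cortical libraries. Within CC, *RELN* varied only 1.33-fold and was highest in Rhesus 11, whereas *GAD1* varied 3.82-fold and was lowest there. The mean of *RELN* in CC was second to that in the cerebellum vermis among the 51 sub-regions. Genes of layer 6b and of the neurons scattered in white matter fell in 7 of 10 cases, such as *CPLX3* (log2FC -4.48 ± 0.25 SE, FDR 3.3e-09) and the nitric oxide synthase gene *NOS1* (log2FC -2.56 ± 0.39 SE, FDR 5.84e-05). *NPY*, a member of this list too, was not called, as given above. The members that rose were *CCN2* (log2FC 1.03 ± 0.14 SE, FDR 1.63e-05), which lost its call without Rhesus 6, 8 or 10 (0.93, 0.98 and 1.00) and under glmTreat (FDR 0.428), and *CHODL*, for a membrane lectin that marks rare long-range interneurons. *CHODL* had 29.7 to 47.6 CPM in CC (median 39.3) and 1.53 to 2.33 CPM in the neocortex (median 1.80) (log2FC 4.37 ± 0.10 SE, FDR 1.9e-12), its highest mean of the 51 sub-regions, above all 248 cortical libraries and with a 1.61-fold range among CC libraries.

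The CC borders the lateral ventricles, whose walls carry ciliated ependymal cells and, beyond them, the choroid plexus that secretes cerebrospinal fluid. Choroid plexus genes were present in all CC libraries in amounts that differed between animals. The summed list was 257 to 2739 CPM in CC (median 773) and 29.8 to 43.2 CPM in the neocortex (median 35.2). Rhesus 10 held the most, followed by Rhesus 3, 2, 8, 11 and 6, and Rhesus 7 and 4 the least. Of 13 genes, 10 were called higher in CC, 1 lower and 2 neither. *TTR*, for the thyroid hormone carrier of the choroid plexus, had 155 to 2195 CPM in CC (median 567) and 0.376 to 6.99 CPM in the neocortex (median 0.740) (log2FC 9.13 ± 0.61 SE, FDR 1.85e-08), and all CC libraries lay above all neocortex sums. *OTX2*, a choroid plexus transcription factor, had 1.76 to 20.4 CPM in CC (median 4.74) and 0 to 0.0833 CPM in the neocortex (median 0.0150) (log2FC 8.09 ± 0.52 SE, FDR 1.24e-08). *FOLR1*, the folate receptor, had 3.97 to 38.5 CPM in CC (median 8.46) and 0.119 to 0.342 CPM in the neocortex (median 0.198) (log2FC 5.44 ± 0.39 SE, FDR 4.45e-08). In each of these 3 genes Rhesus 10 was highest. The sulfate transporter gene *SLC13A4* had 8.53 to 99.2 CPM in CC (median 23.5) and 0.693 to 3.46 CPM in the neocortex (median 1.81) (log2FC 3.83 ± 0.32 SE, FDR 1.77e-07). The water channel gene *AQP1* had 15.3 to 129 CPM in CC (median 77.9) and 1.92 to 3.63 CPM in the neocortex (median 2.76) (log2FC 4.71 ± 0.29 SE, FDR 9.99e-09), and its order of animals differed, with Rhesus 2, 11 and 3 at 129, 128 and 124 CPM above Rhesus 10 at 92.3. *CLIC6* was called with overlapping groups (4.73 to 65.6 CPM in CC, median 12.5, and 1.75 to 12.5 CPM in the neocortex, median 4.34; log2FC 1.51 ± 0.52 SE, FDR 0.0189), and *KL*, the klotho gene, was not called (6.35 to 73.3 CPM in CC, median 10.96, and 6.25 to 10.5 CPM in the neocortex, median 8.26; log2FC 0.79 ± 0.32 SE, FDR 0.0381), though it was without Rhesus 7 (log2FC 1.01) or without the animal as a block (1.25). *STEAP1* was called lower at very low levels, with 0 to 0.366 CPM in CC (median 0.0768) and 0.328 to 0.653 CPM in the neocortex (median 0.398). The calls for *CLIC6* and *STEAP1* were lost under glmTreat (FDR 0.168 and 0.0562). Without the 4 animals highest in the list (Rhesus 10, 3, 2 and 8), 8 of the 13 genes were called higher, the log2FC of *CLIC6* was 0.03 in place of 1.51 and its call was lost, as it was without Rhesus 2 alone (1.21), while the counts for compact myelin (15 of 15 higher) and pan-neuronal genes (14 of 14 lower) were the same. Over all genes 3370 were then called higher and 4484 lower. The animals left out were chosen by this list's sum in CC, so lower values of its members, *CLIC6* included, follow partly from that choice. Whether choroid plexus tissue was part of the CC pieces was not tested.

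**Figure D4:**
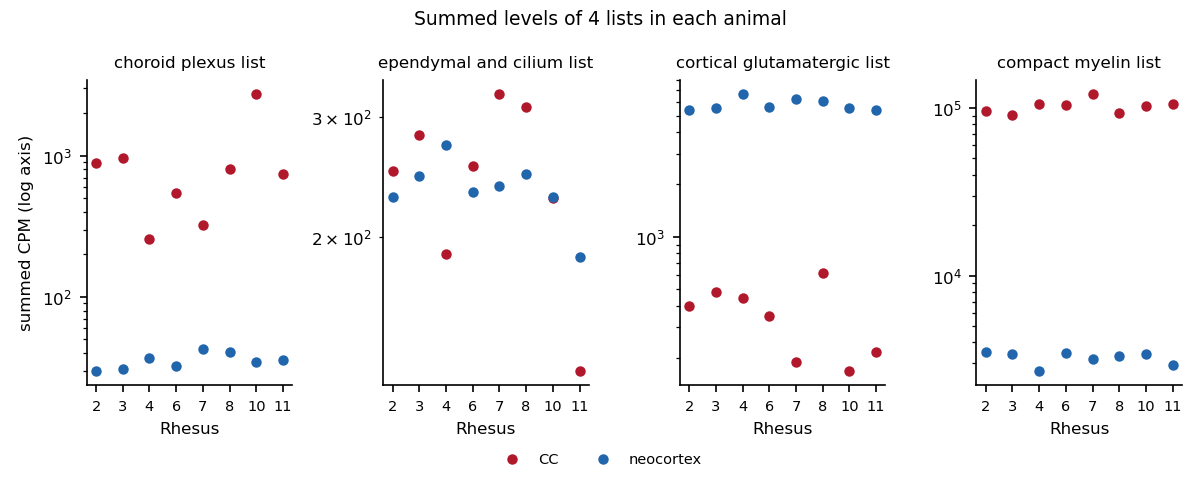
Summed CPM of 4 gene lists in the CC library and the neocortex sum of each animal, on logarithmic axes that differ between panels. The choroid plexus sum in CC runs from 257 CPM in Rhesus 4 to 2739 in Rhesus 10, whereas the compact myelin sum stays between 91097 and 121460 CPM.

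Genes of ependymal cells and motile cilia had a different order of animals. Their summed level was 127 to 324 CPM in CC (median 252) and 187 to 273 CPM in the neocortex (median 235), so that the sums overlapped, with Rhesus 7 and 8 highest in CC and Rhesus 11 and 4 lowest. Of 14 genes 8 rose, 1 fell and 5 were not called. *FOXJ1*, the master regulator of motile cilia, had 4.94 to 21.5 CPM in CC (median 16.6) and 0.620 to 1.48 CPM in the neocortex (median 1.00) (log2FC 3.89 ± 0.30 SE, FDR 8.21e-08) without overlap, and the dynein gene *DNAH11* 14.6 to 57.4 CPM in CC (median 30.8) and 1.13 to 1.43 CPM in the neocortex (median 1.25) (log2FC 4.71 ± 0.19 SE, FDR 1.72e-10). *TEKT1* had 1.83 to 20.6 CPM in CC (median 13.3) and 2.38 to 5.34 CPM in the neocortex (median 3.19), higher in CC in 7 of 8 animals (log2FC 1.67 ± 0.33 SE, FDR 0.000479). *CCDC39* fell by 1.10 (FDR 3.19e-05), a call lost without Rhesus 8 (log2FC -0.95), under glmTreat (FDR 0.249), and without the 4 animals highest in choroid plexus (-0.999) or cortical neuron transcripts (-0.89). The part of ependymal cells in these values was not tested.

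The 12 genes named by size in favor of CC were those with the largest log2FC among the called genes that carried a name, reached 1 CPM on average in CC and moved the same way in every animal. Besides *TTR* and *OTX2* they included *CLDN2*, a claudin gene known from the choroid plexus (0.278 to 7.39 CPM in CC, median 1.19, and 0.00341 to 0.0387 CPM in the neocortex, median 0.0113; log2FC 6.69 ± 0.50 SE, FDR 5.54e-08). Genes known from motile cilia were *CFAP161* (2.26 to 16.8 CPM in CC, median 7.61, and 0.00321 to 0.0853 CPM in the neocortex, median 0.0150; log2FC 8.49 ± 0.43 SE, FDR 1.47e-09), *FAM183A* (log2FC 8.23) and *DNAAF6* (7.01), and *CAPSL* (6.87) was another of the 12. Several had a higher mean outside CC, among them *OTX2* in the thalamus (68.7 CPM) and *CAPSL* in the pituitary (18.5 CPM). Which cells the transcripts came from was not tested. *ADGRD2*, an adhesion receptor gene, had the largest log2FC of the 12, with 3.44 to 30.5 CPM in CC (median 15.7) and 0.00321 to 0.0422 CPM in the neocortex (median 0.00828) (log2FC 10.14 ± 0.48 SE, FDR 7.36e-10). Its CC level was highest in Rhesus 2 and lowest in Rhesus 11. *PI15*, a secreted protein gene, had 3.33 to 11.6 CPM in CC (median 6.05) and 0.0228 to 0.0985 CPM in the neocortex (median 0.0466) (log2FC 6.98 ± 0.30 SE, FDR 3.11e-10), and its mean in CC was the highest of the 51 sub-regions. The chitinase-like gene *CHI3L2* (6.78), the glutathione transferase gene *GSTA5* (6.61) and *NEUROG2*, a proneural factor gene (6.99), completed the 12. Apart from *TTR*, the neocortex levels of these genes were below 1 CPM in every animal. The genes named by their difference in CPM included *MBP*, *CCDC152*, *GFAP* and *TF*. *CCDC152* had 2529.9 to 5321 CPM in CC (median 3885) and 185 to 255 CPM in the neocortex (median 205) (log2FC 4.18 ± 0.12 SE, FDR 9.43e-12), and reads of any overlapping gene could not be told apart from its own.

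By the same rule, with at least 1 CPM in the neocortex, the 12 genes with the largest log2FC against CC included 9 with at most 3 counts in any CC library. *NPBWR2*, a neuropeptide receptor gene, had no more than 1 count in any CC library and was at least 10.1-fold lower in CC, taking 3 counts per library as the floor. On the same floor *DSG3* was at least 9.44-fold lower, *SPINK5* 9.36-fold, *FSHB* 8.11-fold, *GSG1L2* 6.85-fold, *KRT80* 6.84-fold, the somatostatin receptor gene *SSTR5* 6.63-fold, *DMKN* 6.04-fold and *NOX3* 5.30-fold. Of the others, *FREM3*, an extracellular matrix gene, had 0 to 1.21 CPM in CC (median 0.0992) and 40.8 to 65.1 CPM in the neocortex (median 47.6) (log2FC -7.13 ± 0.41 SE, FDR 4.63e-09). The potassium channel gene *KCNS1* had 0.0882 to 1.17 CPM in CC (median 0.425) and 21.7 to 91.5 CPM in the neocortex (median 61.1) (log2FC -6.93 ± 0.32 SE, FDR 5.86e-10). *TESPA1* had 0.545 to 5.10 CPM in CC (median 1.27) and 144 to 232 CPM in the neocortex (median 189) (log2FC -6.76 ± 0.28 SE, FDR 2.11e-10). None of the 12 overlapped between the CC libraries and the neocortex sums, which follows largely from the rule that picked them. Against the 248 single cortical libraries 9 of the 12 overlapped, all but *SSTR5*, *KCNS1* and *TESPA1*. The neocortex sum holds about the reads of 31 libraries, so genes at these levels are measured far more precisely there than in CC. It also pools unlike sub-regions. The cortical sub-region means of *FSHB* ran from 0.00951 CPM in the inferior occipital gyrus to 21.5 CPM in the temporal polar gyrus. In the pituitary the mean of *FSHB* was 250 CPM.

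The globus pallidus (GP), a basal ganglia nucleus crossed by many myelinated fibers, had the next highest mean after CC for the 13 compact myelin genes that were highest in CC. In the comparison of CC with GP, again with the animal as a block and edgeR's test, 14440 genes were tested, 544 (3.77%) were called higher in CC and 1354 (9.38%) lower. The means here are over 8 animals with their SD. *MBP* had 51683 ± 4073 CPM in CC and 35689 ± 14365 CPM in GP (log2FC 0.61 ± 0.17 SE, FDR 0.0108), below the size for a call. Its GP libraries ran from 25319 to 70096 CPM, and CC was higher in 7 of 8 animals. Of 15 compact myelin genes 2 were called, *CLDN11* (429.7 ± 64.8 CPM in CC and 189 ± 56.6 CPM in GP; log2FC 1.23 ± 0.13 SE, FDR 1.95e-05) and *ERMN* (1467 ± 239 CPM in CC and 728 ± 217 CPM in GP; log2FC 1.06 ± 0.15 SE, FDR 0.000191), and the list median was 0.83. The call for *ERMN* was lost without Rhesus 4 (log2FC 0.90). *ENPP6*, with 63.2 ± 12.8 CPM in CC and 16.5 ± 4.66 CPM in GP, rose more (log2FC 1.96 ± 0.14 SE, FDR 1.14e-06), and *MYRF* passed narrowly (log2FC 1.03 ± 0.17 SE, FDR 0.000432), with no call without Rhesus 4 (0.87) or without the animal as a block (0.95). None of the 18 receptor and enzyme genes of oligodendrocytes was called in either direction. Of 16 genes of cortical glutamatergic neurons, 5 were higher in CC than in GP, 4 lower and 7 not called (median log2FC 0.31). *SLC17A7* had 36.3 ± 22.8 CPM in CC and 1.84 ± 1.56 CPM in GP (log2FC 4.23 ± 0.50 SE, FDR 3.92e-05), and *NEUROD6* (4.23), *NEUROD1* (3.08), *CAMK2A* (1.51) and *FEZF2* (3.56) were higher in CC as well. The furthest below GP was *SLC17A6*, for the transporter of subcortical glutamatergic neurons (log2FC -3.89 ± 0.40 SE, FDR 1.62e-05). Of 14 pan-neuronal genes 13 were lower in CC, with *NEFH* at 3.52 ± 1.99 CPM in CC and 236 ± 97.5 CPM in GP (log2FC -6.00 ± 0.46 SE, FDR 1.77e-06) and *NEFL* at a log2FC of -5.15. Among astrocyte genes *CD44* was higher in CC (log2FC 1.17), and *ETNPPL* (-2.59) and *GJB6* (-2.23) were among 5 that were lower.

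**Figure D5:**
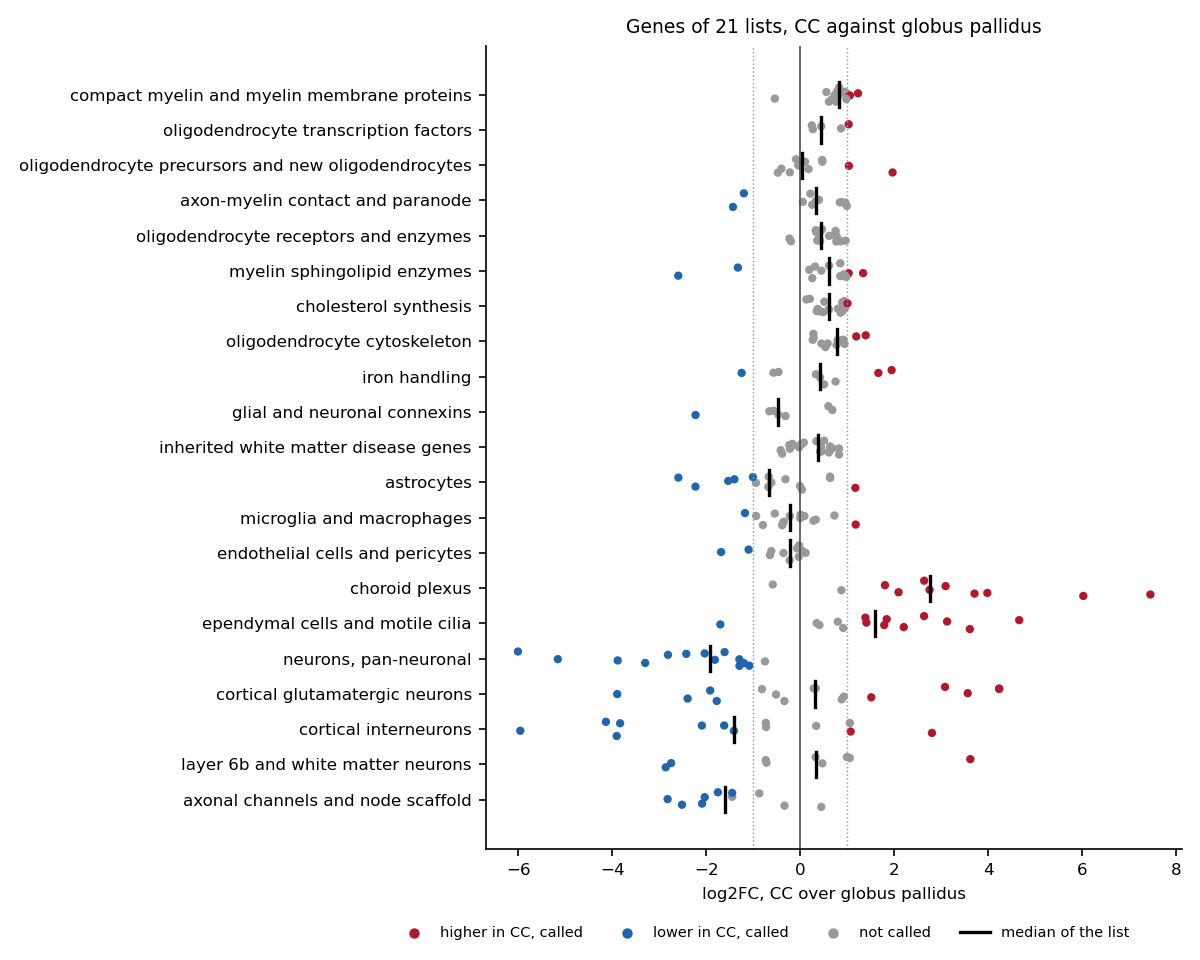
Difference between CC and GP (log2FC on the horizontal axis) for each tested gene of the same 21 lists, 1 point per gene, colored by whether the gene was called, with a black bar at each list's median and dotted lines at a log2FC of -1 and 1. Compact myelin genes center on 0.83 and the choroid plexus genes on 2.75, while pan-neuronal genes center on -1.92.

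By the same rule the 5 genes named for the largest fitted log2FC over GP were *TTR* (log2FC 7.45 ± 0.67 SE, FDR 5.88e-06), *CAPSL*, *CFAP161*, *FAM81B* and *MMRN1*, the gene of a secreted multimerin. The last 4 had at most 2 counts in any GP library, so their folds are only bounded. On the floor of 3 counts per library *CAPSL* was at least 21.3-fold higher in CC, *CFAP161* 33.2-fold, *FAM81B* 25.03-fold and *MMRN1* 14.6-fold. Over the lists, 9 of 11 choroid plexus genes and 9 of 14 ependymal and cilium genes were higher in CC than in GP. *OTX2* was not among them (log2FC -0.58 ± 0.37 SE, FDR 0.207). The 5 furthest below GP by that rule began with *SHH*, for the sonic hedgehog signal (0.0547 ± 0.0673 CPM in CC and 15.2 ± 6.32 CPM in GP; FDR 6.4e-08), and its target *GLI1* (0.0657 ± 0.0996 CPM in CC and 6.55 ± 6.09 CPM in GP; log2FC -6.16 ± 0.47 SE, FDR 1.92e-06). *SHH* reached at most 3 counts in a CC library, and on the same floor was at least 58.5-fold lower than in GP. *GLI1* reached at most 4 counts, with a CC mean below that floor, so the size of its log2FC is uncertain. The others were *SYNDIG1L* (-6.07), the amino acid transporter gene *SLC7A10* (-6.06) and *NEFH*. Against the neocortex *SHH* was at least 12.4-fold lower in CC on the floor of 3 counts per library. *GLI1* was lower there too (log2FC -5.26 ± 0.45 SE, FDR 2.41e-07), with 0 to 0.242 CPM in CC (median 0) and 2.25 to 3.31 CPM in the neocortex (median 2.74), below all 248 cortical libraries. Its mean in CC, 0.0649 CPM, lay below the 0.257 CPM of that floor, so the size of this log2FC is uncertain.

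Whether the difference between CC and neocortex itself differed with age was tested as an interaction, over 4 young and 4 mid-aged animals. No gene was called at an FDR below 0.05 with edgeR. Of 18396 genes, 943 (5.13%) had an unadjusted p below 0.05, and DESeq2 called 25 genes. Chosen after these values were seen, *CHRNA1*, for an acetylcholine receptor subunit, was among the 25 (change of the log2FC 1.83, FDR 1.36e-08) and was called by edgeR without Rhesus 4 (2.02, FDR 0.0278). The kinase gene *DYRK4* was among them as well (-2.45, FDR 0.00952) and was called by edgeR without Rhesus 7 (-3.00, FDR 0.006). For the compact myelin list the change of the log2FC from young to mid-aged animals ran from -0.55 to 0.33 with a median of -0.22, beside 0.02 over all genes tested, with 4 of 15 genes at an unadjusted p below 0.05 and a smallest FDR of 0.914. Over the lists with more than 1 gene the medians ran from -0.36 for axon-myelin contact, where 4 of 11 genes had an unadjusted p below 0.05, to 0.55 for the choroid plexus, where 2 of 13 did. The same test for sex called 1 gene (0.00544%), *NLGN4Y* on the Y chromosome, with 484 genes (2.63%) at an unadjusted p below 0.05. Of the ependymal and cilium genes 5 of 14 (35.7%) had such a p, with a median of -0.63 (female minus male), and none passed the FDR with edgeR. DESeq2 called *NLGN4Y* and also *CFAP100* (change of the log2FC -1.64, female minus male, FDR 0.00023), which edgeR did not call. In the 4 males *NLGN4Y* had 21.8 to 26.3 CPM in CC and 13.1 to 20.3 in the neocortex, and in the 4 females 0.186 to 1.88 in CC and 0.834 to 7.93 in the neocortex. The interaction was a log2FC of -2.37 (female minus male, FDR 0.0324), and it lost the call without any 1 of the animals other than Rhesus 7 (log2FC -2.52 to -2.19). *NLGN4Y* has a close copy on the X chromosome with which the counting could share reads, so the reads in females are uncertain. A p that missed the threshold does not show that the sexes or ages were alike.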

How the data were processed

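RNA was sequenced after ribosomal RNA depletion with a strand-specific kit, and the authors deposited a table of raw read counts per gene. Per the study's methods and the labels, reads of samples with poor quality were trimmed (Trim Galore 0.4.4), and reads were aligned to the rhesus assembly Mmul 8.0.1 (HISAT2 2.0.5) and counted against Ensembl release 91 (HTSeq 0.6.1). The strand setting of the counting is not given in the sources used here, so reads of antisense partners could not be told apart. The table held 30807 genes. Gene symbols came from the reference table for 17572 and from the study's supplementary names for 561. Of all genes, 2441 shared a symbol with another and were not matched by it. The 22 gene lists held 311 distinct genes, of which 276 were matched. Members and lists were chosen with earlier results of these data known.

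Counts of the CC libraries, of the cortical libraries summed within each animal, and of GP were fitted with edgeR 4.0.16 in R 4.3.3 (TMM scaling, filterByExpr, quasi-likelihood F-test, animal as a block, Benjamini-Hochberg adjustment over all genes tested). A gene was called at an FDR below 0.05 and an absolute log2FC above 1, or in the interactions of tissue with age or sex at an FDR below 0.05. The animals are the replicates, and both tissues of an animal come from 1 brain by the labels. Deviations from the group means correlated between the tissues of an animal at 0.167 to 0.366, and each of the 8 CC libraries correlated best with its own animal. SE is the log2FC divided by the root of the F statistic. The floor for genes near 0 was 3 counts, which covers counting error only.

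Besides list members, genes were named by rule: 12 per direction by log2FC with at least 1 CPM in the higher tissue and the same sign in every animal, 5 by difference in CPM, 5 per direction against GP, and up to 3 per interaction. The fits were tested on simulated counts, with 200 genes changed 4-fold, and all 200 were recovered in each comparison. Calls among the other genes numbered 0 for CC against neocortex and against GP, 11 for age and 5 for sex. Every simulated gene had the same spread, and the changed genes were drawn only from those with ample counts. The simulation therefore checks that the fits run correctly. It does not show how often low or variable genes of these data are found or falsely called. Alternatives were DESeq2 1.42.0, its size factors, other filters and thresholds (among them glmTreat against a log2FC of 1), no block, other ways to form the cortical side, and animals left out. The chromatin accessibility samples of the series were not used here, and 8 samples labelled midbrain were not analysed here. Some members of the lists are counted but not reported here by name.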

Additional observations from a re-analysis of the deposited data

Results flagged for a closer look

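Within each tissue a single animal was marked where its gap to the nearest other animal was large for the range of the 8 (Dixon's test at the 95% level). Of 412 sets of 8 values examined, 27 (6.55%) were marked. The test's nominal rate of about 1 in 20 holds for independent sets of normally distributed values. These CPM values need not be normal and the sets share animals, so that rate is only a rough guide.

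In CC, 10 of the marks fell on Rhesus 10. It was the highest for *TTR* at 2195 CPM, *OTX2* at 20.4, *CLDN2* at 7.39, *KL* at 73.2, *CLIC6* at 65.6, *SLC13A4* at 99.2 and *FOLR1* at 38.5, and for the summed choroid plexus list at 2739.3 CPM. It was also the highest for *CP* at 53.8 CPM and for *CNTN2* at 3282 CPM. These values are not independent, since most of the genes are members of 1 list. Rhesus 6 was the highest in CC for *TREM2* at 30.7 CPM, *TYROBP* at 29.3 and *CD68* at 22.02, and in the neocortex for the summed microglia list at 448.99 CPM. Rhesus 7 was the highest in CC for the summed compact myelin list, at 121460 CPM.

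In the neocortex Rhesus 8 was the highest for *TTR* at 6.99 CPM, *OTX2* at 0.0833, *CLDN2* at 0.0387, *DNAAF6* at 0.0238, *DMKN* at 2.28 and *TM7SF2* at 34.2. Rhesus 10 was the highest there for *NOX3* at 2.66 CPM and the lowest for *SPTBN4* at 159. Rhesus 11 was the lowest for *CA2* at 13.8 CPM and the highest for *ADGRD2* at 0.0422. Rhesus 2 was the highest for *CFAP161* at 0.0853 CPM and Rhesus 4 for *NEUROG2* at 0.0257. Between the sexes the difference of CC from the neocortex differed for *NLGN4Y*, with a log2FC of -2.37 (female minus male) in edgeR's interaction test.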

How the results depend on the processing

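Of 216 results for named genes, 159 kept their direction and their side of the threshold under every alternative tried. Results that turned their sign were uncalled on both sides. They were *CNTN1* (0.0753) and *EIF2B5* (0.0442) against the posterior cingulate gyrus alone, *SQLE* without a filter (-0.0537) and under the study's detection rule (-0.0441), *EIF2B5* without the 4 animals highest in cortical neuron transcripts (0.0474), *KL* without the 4 animals highest in choroid plexus transcripts (-0.0251), and *FLT1* without the latter (0.206) or the former (0.125). Leaving out 1 animal moved *FLT1* between -0.142 and 0.00895, above 0 without Rhesus 2 or 3, and *NLGN4Y* between -0.454 and 0.0286, above 0 without Rhesus 10. Without the replicate block *NLGN4Y* was at 0.309. Under glmTreat 12 named genes lost their call (*LHFPL3*, *ADORA1*, *SLC16A1*, *NSDHL*, *SEPTIN7*, *P2RY12*, *ACTA2*, *CLIC6*, *STEAP1*, *CCDC39*, *FEZF2* and *CCN2*, FDR 0.0562 to 0.464). Of these *LHFPL3*, *ADORA1*, *SLC16A1*, *NSDHL* and *CCN2* also lost it without a filter and under the study's detection rule, where *NPY* gained one. At an absolute log2FC above 2, 1461 genes were higher and 2662 lower, and 41 named genes lost their call, more than under any other setting. Among them were *GPR17*, *NFASC*, *CSF1R*, *AQP4*, *VIM* and *SLC1A3*. Without the replicate block 3503 were higher and 4673 lower in CC than in the neocortex, and 468 and 1352 against GP. Leaving out 1 animal gave 3425 to 3530 higher and 4632 to 4728 lower against the neocortex, 441 to 624 and 1312 to 1432 against GP, and 0 to 1 calls for age and for sex. DESeq2 called 25 genes for age and 2 for sex, and the cause was not tested. Against the posterior cingulate gyrus alone 3054 genes were higher and 3247 lower (48.5% of the calls higher, in place of 42.4%), and the median log2FC of all genes was 0.04 in place of -0.09. There *ARSA* (0.99), *NSDHL* (0.89), *CCN2* (0.82) and *CCDC39* (-0.67) lost their calls, and *ANK3* (1.26), *GLUL* (1.25), *DEGS1* (1.05) and *NPY* (-1.16) gained one. The 4 animals highest in cortical neuron transcripts (Rhesus 8, 3, 4 and 2) were left out as a choice made after the data were seen, and *LHFPL3* (0.88), *SLC16A1* (0.88), *CLIC6* (1.24) and *CCDC39* (-0.89) then lost their calls, while *NPY* (-1.08) and *NLGN4Y* (-1.06) gained one. Without the 4 animals highest in choroid plexus transcripts *SLC16A1*, *CLIC6* and *CCDC39* lost theirs and *CD163* gained one. A CC library holds far fewer reads than a neocortex sum, so low genes are limited by the depth of CC.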
